A study of Mus musculus with 2 samples.

Results

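Immediate early genes are the genes that neurons transcribe within minutes of synaptic activity, without waiting for new protein. Here 10 such genes were followed in 5xFAD mouse hippocampus: Fos, Fosb and Junb, Egr1, Egr3 and Npas4, Ier2 and Dusp1, and Arc and Nptx2. They were chosen by name and not by a rule on their values, though with earlier results of these data known. All 10 were found among the 55536 annotated genes of the deposited tables. The tissue is labelled as a layer of hippocampus, and its source as male, 5xFAD/CAST and adult, at 8 to 10 months. 5xFAD mice carry human transgenes with familial Alzheimer's disease mutations, expressed in neurons from a Thy1 promoter. The label description gives a cross with Cast, a strain derived from wild castaneus mice. Both libraries carry the transgene, and there is no non-transgenic, stimulated or unstimulated group among them, so the values are levels and not responses. The labels number the 2 libraries as biological replicates 1 and 2, and both fall into 1 group. Their labels carry the same donor identifier, so it is not clear whether they come from separate animals, and the spread between them (SD, n = 2 libraries) may be technical. Each was made from 300 ng of total RNA, with ribosomal RNA reduced. They held 26128897 and 28689423 expected counts over all entries, spike-in RNAs included. Markers of CA1, CA3 and dentate neurons were present in both, but markers of striatum and choroid plexus, were higher in replicate 1.

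In the textbook account, calcium entry and kinase cascades activate CREB and serum response factor, which are already bound at the promoters of these genes. The transcription factors among them then switch on later genes, while Arc and Nptx2 act directly at synapses and Dusp1 shuts the kinases off again. In hippocampus they are widely used as marks of recently active pyramidal and granule neurons.

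All 10 genes were detected in both libraries, at levels that fell into a higher and a lower set. In TPM, the deposited level per transcript length, Egr3 had the highest mean, 27.4 ± 3.50 (SD, n = 2). Arc followed at 24.8 ± 8.06, Junb at 24.3 ± 4.17 and Egr1 at 22.6 ± 3.33 TPM. These 4 genes held 71.8% of the summed TPM of the 10 in replicate 1 and 78.3% in replicate 2. Nptx2 lay between the sets at 12.4 ± 1.39 TPM. The lower set ran from Dusp1 (6.24 ± 0.240 TPM) to Npas4, the lowest, with a 16.6-fold span from the highest mean to the lowest. Against the 13281 protein-coding genes with at least 1 TPM in both libraries, whose medians were 15.54 and 15.86 TPM, 4 of the genes lay above and 6 below. Egr3 stood at percentile 68.8 of those genes and Npas4 at percentile 3.69.

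The order of the means was only partly resolved by the replicates. The ranges of the 2 libraries overlapped between Egr3 and Arc, Arc and Junb, Junb and Egr1, Dusp1 and Fos, and Ier2 and Fosb, so these neighbours did not differ beyond their spread. Ranges were separate between Egr1 and Nptx2, Nptx2 and Dusp1, Fos and Ier2, and Fosb and Npas4.

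**Figure D1:**
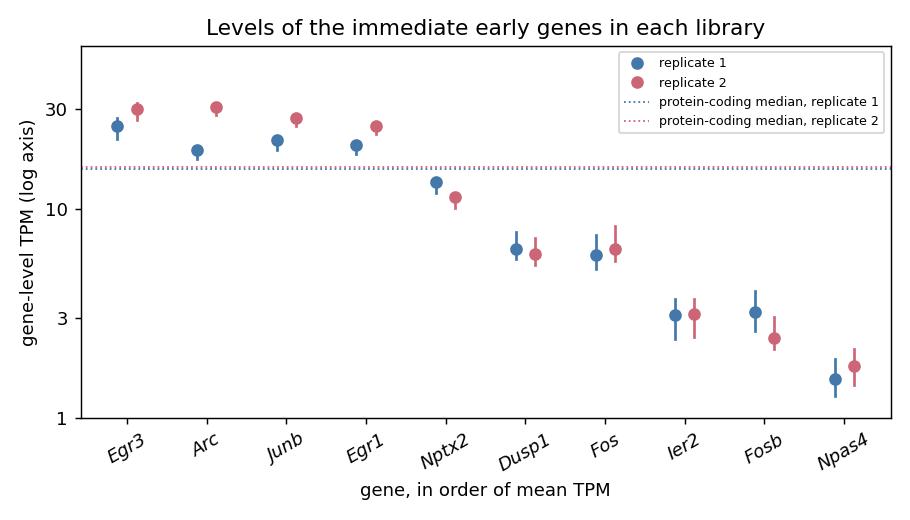
Gene-level TPM on a log axis for the 10 immediate early genes in replicate 1 (blue) and replicate 2 (red), with the intervals deposited beside each value (their level is not stated) and dotted lines at the medians of protein-coding genes. Egr3, Arc, Junb and Egr1 lie above the dotted lines in both libraries, and Arc shows the widest separation, 19.08 against 30.48 TPM.

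With 1 group, only the difference between the 2 libraries could be tested. Rounded expected counts were compared with an exact conditional binomial test (two-sided, Benjamini-Hochberg adjustment over 16971 genes, adjusted p under 0.05). It sets the difference between 2 libraries against counting error and compares libraries, not conditions. By that rule 5 of the 10 genes differed, against 18.8% of all genes tested and 14.9% of genes in the same range of mean counts. Higher in replicate 2 were Arc, Egr3, Junb and Egr1 (4 of 10, against 9.93% of all genes). Lower in replicate 2 was Nptx2 (1 of 10, against 8.87%). The deposited TPM intervals of the libraries lay apart for Arc, Junb and Egr1, 3 of 10 genes against 10.2% of all. Over the 10 genes the median log2 ratio of replicate 2 over replicate 1 was 0.12, against 0.00 over all genes tested, and the median size of the ratio was 0.22 against 0.12. The 5 genes called had 537 to 1768 counts in a library and the 5 others 80 to 213, so a given fold difference was less detectable in the latter. Scaling to the spike-in RNAs instead of the trimmed mean of M values moved the median of all genes to 0.27. All 10 genes were then higher in replicate 2, which reversed Nptx2, Fosb, Dusp1 and Ier2, and 95.6% of all called genes were higher, against 52.8% here. In bulk tissue, fewer cells of a type and less RNA per cell cannot be told apart.

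**Figure D2:**
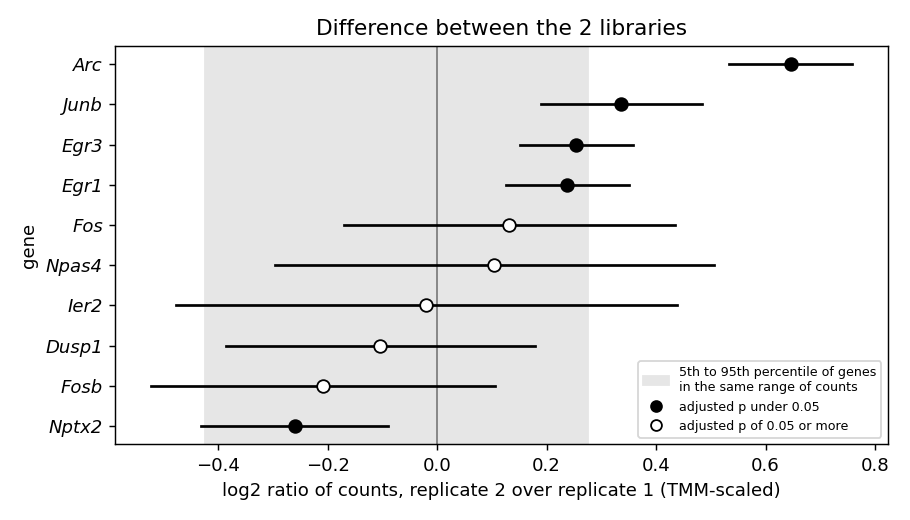
Log2 ratio of replicate 2 over replicate 1 for each gene, scaled by the trimmed mean of M values, with exact 95% intervals for counting error, filled where the adjusted p is under 0.05. Arc, at 0.65, is the gene of the 10 whose whole interval lies beyond the grey band, which spans -0.42 to 0.28, the 5th to 95th percentile of genes in the same range of counts.

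Fos, Fosb and Junb encode subunits of AP-1, a dimeric transcription factor that joins a Fos protein to a Jun protein. Fos (chr12:85473890-85477273, plus strand, mm10) measured 5.99 TPM in replicate 1 and 6.44 TPM in replicate 2. Its 170 and 203 counts gave a log2 ratio of 0.13 (95% interval -0.17 to 0.43, adjusted p = 0.640 by the exact binomial test). Fosb (chr7:19302696-19310051, minus strand) measured 3.22 and 2.40 TPM, from 176 and 166 counts. It was lower than Fos in both libraries. Its log2 ratio of -0.21 (interval -0.52 to 0.11, exact binomial adjusted p = 0.414) did not pass the test. Junb (chr8:84974484-84978718, minus strand) was the most abundant of Fos, Fosb and Junb, at 21.37 and 27.27 TPM. Its 656 and 903 counts were higher in replicate 2, by 0.34 on the log2 scale (interval 0.19 to 0.48, exact binomial adjusted p = 8.45e-05). At its 3′ end the Junb model overlaps Prdx2, a peroxiredoxin gene on the opposite strand at 132.4 and 146.43 TPM. The overlap concerns the short transcript Junb-202, to which replicate 1 gave 2 counts and replicate 2 gave 0.

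Fosb makes 2 proteins by alternative splicing. Full-length FosB has a C-terminal part with transactivating function, and delta-FosB, the truncated and long-lived form that builds up with repeated activity, ends early. The stretch where they part is shown because everything said of the forms rests on it. It lies in the last exon of Fosb-201 in GENCODE M21, read 5′ to 3′ on the minus strand of mm10 (chr7:19304983-19305170), with the 140 bases that delta-FosB removes in capitals in the FosB line. In the delta-FosB line the capitals mark the stop codon that directly follows the junction.
FosB: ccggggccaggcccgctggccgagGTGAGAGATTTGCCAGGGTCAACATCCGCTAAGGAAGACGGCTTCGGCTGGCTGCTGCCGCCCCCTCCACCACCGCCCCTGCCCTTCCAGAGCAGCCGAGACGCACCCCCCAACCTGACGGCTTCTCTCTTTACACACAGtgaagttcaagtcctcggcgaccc
delta-FosB: ccggggccaggcccgctggccgagTGA
The removed bases (chr7:19305007-19305146) begin with GT and end with AG, as introns do, and leave a remainder of 2 when divided into codons. Skipping them brings a TGA into frame at once. The longest coding model, Fosb-201, has 338 codons, and the delta-FosB models have 237 (Fosb-206) and 201 (Fosb-207). In all, the annotation holds 4 FosB models, 2 delta-FosB models and 1 retained-intron model, Fosb-204.

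In the alignment-based table FosB models held 2.03 TPM in replicate 1 and 1.36 TPM in replicate 2, and delta-FosB models 0.71 and 0.82 TPM. Delta-FosB was thus 22.1% of Fosb TPM in replicate 1 and 34.2% in replicate 2 (28.1% ± 8.52, SD, n = 2). From the alignment-free table the shares were 20.8% and 22.6% (21.7% ± 1.28). In both tables and both libraries the full-length form was the larger. The split rests on few reads, and the model that carried it changed. In replicate 1 the whole delta-FosB estimate lay on Fosb-206, 12.78 counts with a deposited posterior SD of 6.20, and in replicate 2 it lay on Fosb-207, 54.49 counts with a posterior SD of 18.08. By counts rather than TPM the delta-FosB share was 7.26% and 32.8%, since Fosb-206 is annotated at 1090 bases and Fosb-207 at 3523. The deposited TPM intervals of the libraries overlapped for all 7 Fosb transcripts, so no difference between the libraries in the form used was detectable at this depth. Retained-intron Fosb-204, with 30.39 and 14.88 counts, made up 14.8% and 9.07% of Fosb TPM.

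**Figure D3:**
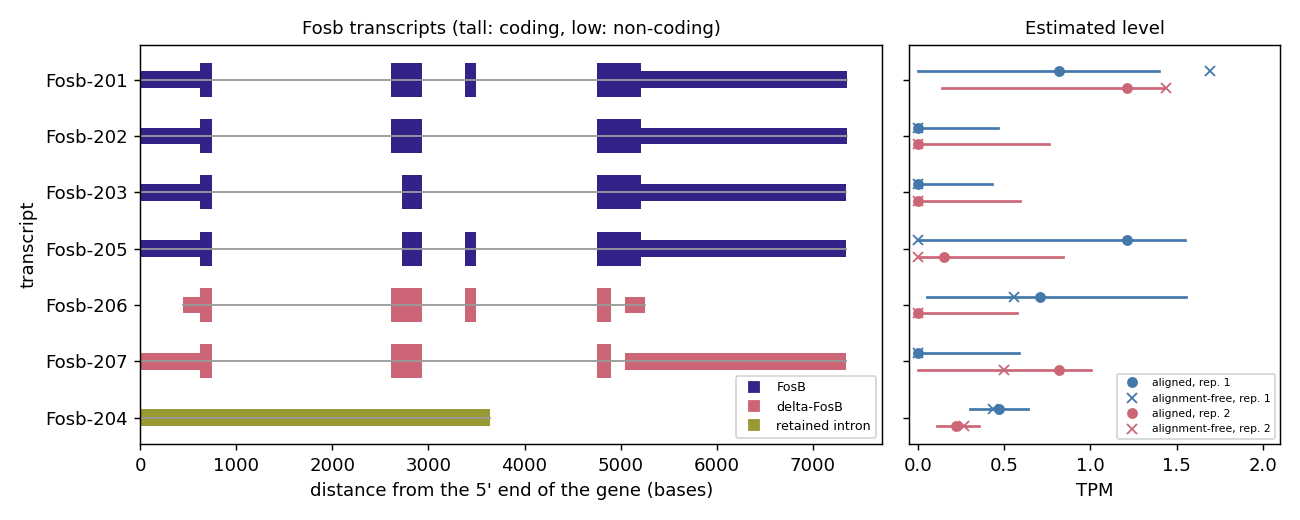
Left, exon models of the 7 Fosb transcripts by distance from the 5′ end of the gene in bases, with coding parts tall; right, TPM of each in the alignment-based table (points with deposited intervals) and the alignment-free table (crosses) for replicate 1 (blue) and replicate 2 (red). The intervals of Fosb-201, Fosb-205, Fosb-206 and Fosb-207 are wide and overlap between the libraries, and delta-FosB lies on Fosb-206 in replicate 1 and on Fosb-207 in replicate 2.

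CREB binds the cyclic AMP response element, whose core letters are TGACG. Promoter windows from RefSeq (GRCm38.p6, 250 bases before to 50 after the gene's start) were matched for 5 of the genes, Fos, Fosb, Junb, Npas4 and Dusp1. That core, searched on both strands, was in 5 of the 5 windows, and in 20.8% of all 32851 windows of that length. The full palindrome TGACGTCA, which contains the core on each strand, was in the Dusp1 window alone, 143 bases before the start, and in 1.79% of all windows. The serum response element core was in none of the 5 windows and in 1.63% of all, which says only that its letters are not within these 300 bases. The windows are shown for the AP-1 genes and Dusp1, with the core in capitals. Each is printed up to the RefSeq start, or to the first base that GENCODE M21 places in an exon of the gene if earlier. The Fos bases are chr12:85473640-85473889 (plus strand), the Fosb bases chr7:19310052-19310295, the Junb bases chr8:84978749-84978998 and the Dusp1 bases chr17:26508520-26508722, the latter 3 on the minus strand.
Fos: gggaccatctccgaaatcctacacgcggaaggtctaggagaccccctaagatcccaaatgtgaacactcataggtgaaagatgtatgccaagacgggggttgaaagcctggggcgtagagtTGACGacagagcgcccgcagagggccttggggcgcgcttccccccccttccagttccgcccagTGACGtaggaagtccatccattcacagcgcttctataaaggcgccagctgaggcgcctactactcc
Fosb: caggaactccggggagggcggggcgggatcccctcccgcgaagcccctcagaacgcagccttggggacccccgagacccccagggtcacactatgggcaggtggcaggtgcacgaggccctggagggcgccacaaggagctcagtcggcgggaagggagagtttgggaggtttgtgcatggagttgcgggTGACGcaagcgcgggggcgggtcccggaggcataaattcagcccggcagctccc
Junb: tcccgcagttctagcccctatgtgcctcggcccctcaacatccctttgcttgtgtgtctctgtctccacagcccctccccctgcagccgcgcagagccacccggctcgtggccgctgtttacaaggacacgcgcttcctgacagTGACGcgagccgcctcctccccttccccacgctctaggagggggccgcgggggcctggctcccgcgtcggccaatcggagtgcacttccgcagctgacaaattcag
Dusp1: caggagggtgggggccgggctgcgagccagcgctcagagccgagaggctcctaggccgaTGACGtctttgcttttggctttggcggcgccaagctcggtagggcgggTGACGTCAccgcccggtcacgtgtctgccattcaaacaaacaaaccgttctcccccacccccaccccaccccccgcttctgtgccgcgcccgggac
In Fos the core begins 129 and 66 bases before the start, in Fosb 60 and in Junb 106. In the Npas4 window it begins 179 and 169 bases before the RefSeq start, but GENCODE M21 starts Npas4-201 further upstream, so that this window lies within its first exon and is not shown. These matches are descriptions of sequence, and binding was not measured. Of the genes with a core in the window, Junb differed between the libraries and Fos, Fosb, Npas4 and Dusp1 did not pass the test.

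Egr1 and Egr3 encode zinc finger transcription factors of the early growth response family, and Npas4 a basic helix-loop-helix factor that answers to calcium entry in neurons. Egr1 (chr18:34859823-34864984, plus strand) measured 20.22 and 24.93 TPM from 1156 and 1486 counts. It was higher in replicate 2 by 0.24 on the log2 scale (interval 0.13 to 0.35, exact binomial adjusted p = 0.000371). Egr3 (chr14:70077203-70082614, plus strand) measured 24.93 and 29.88 TPM from 1360 and 1768 counts, a log2 ratio of 0.25 (interval 0.15 to 0.36, exact binomial adjusted p = 1.96e-05). Egr1 and Egr3 thus had like levels and like ratios, with replicate 2 above replicate 1 in each. Npas4 (chr19:4984355-4990316, minus strand) was the least abundant of the 10 genes, at 1.54 and 1.77 TPM (1.66 ± 0.163, SD, n = 2). From 99 and 116 counts its log2 ratio was 0.10 (interval -0.30 to 0.51, exact binomial adjusted p = 0.813), and a difference of the size seen for Arc was outside that interval, while those of Egr1 and Egr3 were inside it.

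Ier2 encodes a small nuclear protein induced by growth factors, and Dusp1 a phosphatase that inactivates MAP kinases. Ier2 (chr8:84661331-84662852, minus strand) lies 312 kb from Junb on the same chromosome. It measured 3.10 and 3.12 TPM from 80 and 86 counts, the closest pair of values among the 10 genes. Its log2 ratio was -0.02 (interval -0.48 to 0.44, exact binomial adjusted p = 0.984), an interval that holds the ratio of Junb. Dusp1 (chr17:26505590-26562128, minus strand) measured 6.41 and 6.07 TPM from 210 and 213 counts, a log2 ratio of -0.10 (interval -0.39 to 0.18, exact binomial adjusted p = 0.690). Its gene model is long because of Dusp1-201 and Dusp1-205, which overlap Ergic1 on the opposite strand, but both transcripts had 0 expected counts in both libraries.

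Arc and Nptx2 encode synaptic proteins. Arc drives removal of AMPA receptors from the synapse and forms capsid-like particles, and Nptx2 is a secreted pentraxin that gathers AMPA receptors at excitatory synapses on interneurons. Arc (chr15:74669083-74672570, minus strand) measured 19.08 and 30.48 TPM from 1023 and 1745 counts. Replicate 2 was 1.56-fold higher, a log2 ratio of 0.65 (interval 0.53 to 0.76, exact binomial adjusted p = 1.11e-28), the largest difference among the 10 genes. Nptx2 (chr5:144545902-144557478, plus strand) measured 13.35 and 11.38 TPM from 590 and 537 counts. It went the other way, lower in replicate 2 (log2 ratio -0.26, interval -0.43 to -0.09, exact binomial adjusted p = 0.0188). With counts from the alignment-free table its adjusted p was 0.0717 by the same exact test, and with spike-in scaling its log2 ratio was 0.0027, so this call depends on the processing.

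In the alignment-based table the Arc difference lay on 1 of its 2 transcripts. Arc-201 and Arc-202 have 3 exons each and differ by 2 bases at the 5′ end and by 3 bases at the start of the second exon. Arc-201 held 11.28 TPM in replicate 1 and 22.9 TPM in replicate 2, and the deposited intervals (8.20 to 13.9 and 18.7 to 24.8) did not overlap. Arc-202 held 7.80 and 7.58 TPM, with overlapping intervals. In the alignment-free table Arc-201 held 10.8 and 20.9 TPM and Arc-202 held 5.47 and 6.89 TPM. Since few bases tell the models apart, the posterior SD of each count was 79.5 in replicate 1 and 84.6 in replicate 2. Among the 32 transcripts of the 10 genes, the intervals of the libraries were apart for 3, Arc-201, Junb-201 and Egr1-202, and overlapped for 29. Over all 86899 transcripts of the genes tested, including those at or near 0, the intervals were apart for 3.39%.

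Ribosome-depleted total RNA keeps unspliced and non-polyadenylated transcripts. Several of the genes had sizeable TPM shares on non-coding models, and whether the library type accounts for these was not tested. Of the 10 genes, 8 have several annotated transcripts, while Ier2 and Nptx2 have 1 each. The leading transcript was the same in both tables and both libraries for 7 of the 8, Fosb being the exception. Junb-201 held 98.7% and 100% of Junb TPM in the alignment-based table, and Egr1-202 held 85.1% and 90.3% of Egr1. Both Egr1 models code for protein, and Egr1-201 starts 1384 bases further upstream. Egr3 was the most divided of the abundant genes. Its coding model Egr3-204 held 43.1% and 40.02% of Egr3 TPM, and Egr3-202, an unspliced model that reaches 157 bases into the intron, held 31.5% and 34.3%. In the alignment-free table these Egr3 shares were 55.9% and 47.4%, and 28.7% and 27.0%. Egr3-202 had 538.16 and 750.17 counts, with posterior SDs of 62.6 and 67.47. The short non-coding Egr3-203, of 489 bases, held 19.25% and 13.8% in the alignment-based table, and 0% and 17.9% in the alignment-free one. The split of Egr3 is thus an estimate, and intron reads were not counted on their own.

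Npas4 and Fos also had shares that moved between libraries or tables. Coding Npas4-201 held 90.4% of Npas4 TPM in replicate 1 and 48.7% in replicate 2, and retained-intron Npas4-202 held 9.63% and 34.5%. In the alignment-free table the coding shares of Npas4 were 78.3% and 57.3%, with replicate 1 again the higher. The deposited intervals overlapped for each Npas4 transcript, 0.81 to 1.57 against 0.38 to 1.20 TPM for Npas4-201, so the change of share was not separable from the error of the estimate. For Fos, coding Fos-201 held 66.2% and 71.3% of TPM in the alignment-based table and 59.6% and 48.0% in the alignment-free table. The rest of Fos lay on processed transcripts without a coding region, which are short, and by counts Fos-201 held 144.45 of 170 and 178.66 of 203. Dusp1-202 led Dusp1 at 83.6% and 83.9%, and retained-intron models of Dusp1 held 15.3% and 16.1%.

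**Figure D4:**
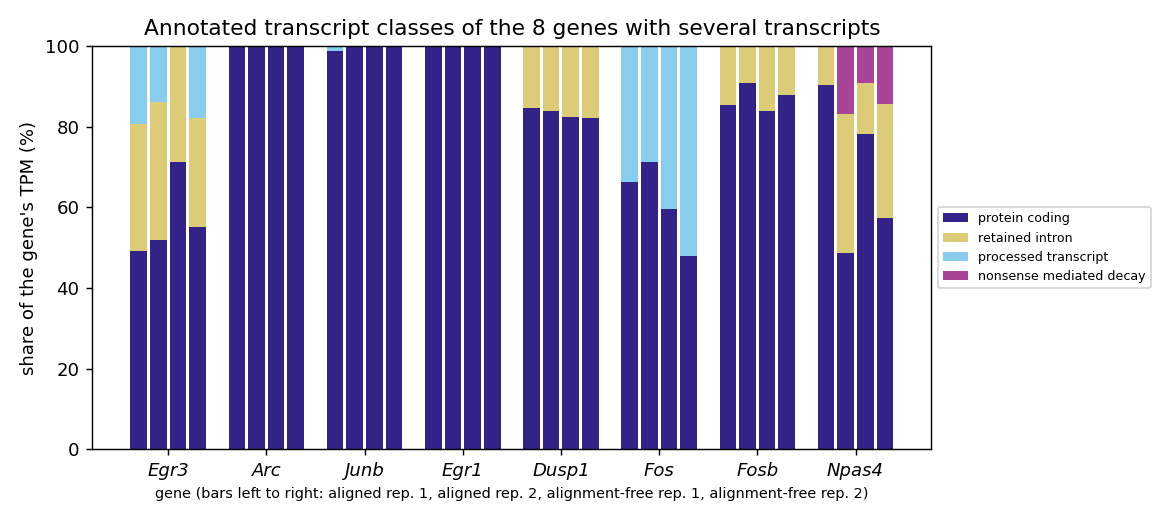
Share of each gene's TPM (%) on annotated transcript classes, for the 8 genes with several transcripts; the 4 bars per gene are replicates 1 and 2 in the alignment-based table, then replicates 1 and 2 in the alignment-free table. Arc and Egr1 are wholly on coding models and Junb nearly so, while Egr3, Fos and Npas4 have large non-coding shares that differ between the tables or the libraries.

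The tables also differed in how many reads they gave each gene. Over the 10 genes the alignment-free estimate was a median of 1.10 times the alignment-based one in replicate 1 and 1.11 times in replicate 2. For protein-coding genes with at least 500 counts the median was 1.14 in both libraries. Junb had a ratio of 1.01 (mean of the libraries), at percentiles 1.85 and 1.97 of those genes. Fos and Dusp1 were also low, at 1.04 and 1.06, Dusp1 at percentiles 3.82 and 6.58. Ier2 stood at percentile 32.8 in replicate 1 and 1.41 in replicate 2. Egr1, Egr3 and Npas4 lay above the median, at percentiles of 79.4 to 92.2. Fos, Dusp1, Ier2 and Npas4 themselves had fewer counts than the genes they are ranked among.

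A wider list of 56 activity-regulated genes, written with earlier results of these data known, was read beside the 10. Its shares of genes called are thus descriptions and not independent evidence. Of its 55 members with enough counts, 17 were higher and 6 lower in replicate 2 and 32 did not pass the exact binomial test, with a median log2 ratio of 0.08. The other gene, Fosl1, had 0 and 3 counts. That is 41.8% called, against 18.8% of all genes. With a mean count of at least 100, 24 of 49 were called, against 22.3% of all genes. No share was taken over genes in the list's own range of counts, and abundant genes are called at smaller ratios. The most abundant were Rasgrp1, a Ras exchange factor (130.12 and 158.01 TPM), and Nptx1, a pentraxin related to Nptx2 (117.16 and 147.1 TPM), both higher in replicate 2. Plk2, a kinase of synaptic scaling, was likewise higher, at 92.79 and 104.65 TPM. Jund, an AP-1 partner of Fos proteins, was lower in replicate 2, at 77.86 and 72.35 TPM, as was Scg2, a secretory granule protein, at 80.15 and 68.3 TPM. Vgf, a neuropeptide precursor, did not pass the test at 71.62 and 72.03 TPM. Called genes more than 1.5-fold apart in scaled counts were Dusp5, a phosphatase for ERK (6.02 and 9.87 TPM, higher in replicate 2), Pim1, a kinase (60 and 38 counts, lower, with 1.80 and 1.40 TPM), and Penk, the enkephalin precursor (53.72 and 15.51 TPM, lower). Penk is also on the striatum marker list, all 9 genes of which were lower in replicate 2.

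Upstream of the early genes, 18 genes for kinases, transcription factors and coactivators of the pathway were tested, of which 5 were higher and 1 lower in replicate 2, against 9.93% and 8.87% of all genes tested. Camk2a, the calcium-dependent kinase of excitatory synapses, stood at 1198.52 and 1341.76 TPM. Mapk3, a MAP kinase, stood at 86.6 and 87.92 TPM. Of 7 genes for partners of the early gene proteins, 3 were higher in replicate 2 (Nab2, Nptx1 and Nptxr) and 2 lower (Jund and Arnt2). Of all genes, 18.8% were called in either direction. Jund and Nptx1 are also on the wider list.

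Markers of the cells and tissues in the dissection also moved between the libraries. Their lists, too, were chosen with earlier results of these data known, so the counts on them are descriptions. Of all genes tested, 9.93% were higher and 8.87% lower in replicate 2, and abundant genes were called at small ratios, such as the astrocyte marker Slc1a2 at a log2 ratio of -0.04. Dentate granule markers summed to 133.64 and 155.08 TPM, with 5 of 7 higher in replicate 2 and none lower. CA3 pyramidal markers summed to 100.16 and 129.18 TPM (4 of 6 higher, none lower) and CA1 pyramidal markers to 295.59 and 320.53 TPM (4 of 7 higher, none lower). The median log2 ratios of these lists were 0.31, 0.34 and 0.12, beside 0.12 for the early genes. Striatum markers, by contrast, summed to 226.52 and 81.48 TPM and choroid plexus markers to 1454.05 and 282.76 TPM, with 9 of 9 lower in replicate 2 on each list. Inhibitory neuron markers summed to 355.3 and 380.41 TPM (1 higher and 2 lower of 6). Cortex, endothelial, microglia, astrocyte and oligodendrocyte markers had 2, 4, 3, 3 and 2 genes lower and none higher. No marker was at 0 in either library. Ratios of Arc, Junb, Egr1, Egr3, Fos and Npas4 had the direction of the dentate, CA3 and CA1 lists. Those of Nptx2, Fosb, Dusp1 and Ier2 had the other direction. Of these early genes, only Arc, Junb, Egr1, Egr3 and Nptx2 passed the test. The part of tissue or cell makeup in these differences was not tested.

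**Figure D5:**
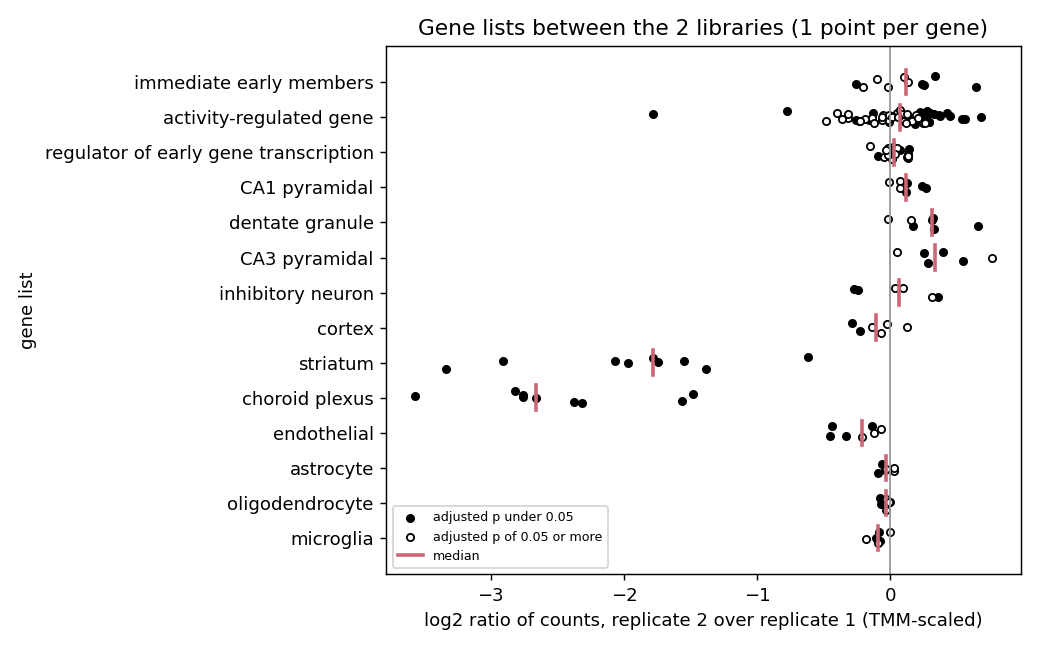
Log2 ratio of replicate 2 over replicate 1 for each gene of each list, 1 point per gene, filled where the adjusted p is under 0.05, with a red line at the list's median. The median of the early genes is 0.12, with single genes from -0.26 to 0.65. Medians are 0.31 and 0.34 for dentate granule and CA3 pyramidal markers, and -1.78 and -2.66 for striatum and choroid plexus markers.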

How the data were processed

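Total RNA-seq of 2 libraries of 1 group was used. According to notes deposited beside the tables, the authors made a gene table and a transcript table from transcriptome alignments, and a second transcript table from reads and an index with no alignment, on mm10 with GENCODE M21. Aligner and quantifier: not given in the sources used here. Per the labels' protocol, library preparation used a directional kit. Per the file headers, the deposited values are expected counts (estimated reads, which need not be whole), TPM, FPKM and the percent of a gene's TPM on each transcript, with posterior SDs and TPM intervals. Spike-ins, 0.541% and 0.448% of counts, were left out of library sizes.

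Expected counts were rounded to whole numbers, scaled by the trimmed mean of M values (edgeR 4.0.16) and compared by an exact conditional binomial test (scipy 1.17.1), two-sided, for genes with a mean count of at least 20. Log2 ratios used a prior count of 0.5. edgeR's quasi-likelihood test needs replicates in each of 2 groups and could not be fitted. Intervals cover counting error only, at 95% confidence. Data with counting error alone were simulated for these libraries, with 16971 genes of which 200 changed. The test recovered 67.5% at 1.5-fold, 84.5% at 2-fold and 98.0% at 4-fold. These rates do not cover other variation between libraries. DESeq2 1.42.0 supplied size factors for 1 of the alternatives. Counts of 3191 genes differed beyond counting error, so the tables are not copies of 1 library, which does not show separate animals.

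All 10 genes are named. From the wider list the text names the 6 with the highest mean TPM and those called and more than 1.5-fold apart. From the upstream list it names those with the highest mean TPM, of which 1 is not reported here. The called partners were named after their values were seen. Genes and lists were chosen with earlier results of these data known.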

Additional observations from a re-analysis of the deposited data

How the results depend on the processing

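No paired analysis was possible because the series has 1 group. With spike-in scaling the log2 ratios of Fosb (0.054), Ier2 (0.24), Dusp1 (0.16) and Nptx2 (0.0027) were reversed, Fos became called (0.39), 5 of the 10 genes were called, and the wider list had 37 genes called in place of 23. As a ratio of TPM, Ier2 was reversed (0.00925). DESeq2 size factors, total counts, a prior count of 5 and no count minimum left the direction and call of all 10 genes as given. A mean count of at least 100 did so for 9, leaving Ier2 untested. The median level was 9.39 TPM, 6.44 in FPKM and 20.8 over protein-coding nuclear genes alone. For the leading transcript, the median share over the 8 genes with several transcripts was 74.0% (mean of the libraries). It was 67.5% in the alignment-free table and 81.4% by counts. Delta-FosB shares by other measures averaged 31.8% over coding transcripts and, chosen after seeing the data, 30.3% by posterior mean TPM. In either library alone, the median level was 8.91 to 9.88 TPM and the delta-FosB share 22.1 to 34.2%. Likewise, the median leading transcript share was 73.3 to 74.8% and the median alignment-free to alignment-based ratio 1.10 to 1.11. Depth limits the genes with 80 to 213 counts and every split of Fosb, Npas4 and Fos into transcripts. The split of Egr3 into transcripts differed between the tables.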
